A study of Homo sapiens with 12 samples.

Results

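The comparison described here is that of a small interfering RNA (siRNA) against PRMT1, called siPRMT1, with a control siRNA in wild type K562 cells, a human erythroleukemia line. It was taken by the sample titles and used 6 of the 12 arrays of the series, 3 per siRNA, each siRNA group holding replicates numbered 1, 2 and 3. The siPRMT1 cells and the control cells alike were wild type K562 kept at 37 °C in RPMI 1640 medium that held 10% fetal bovine serum. Both received 3 µg of siRNA by nucleofection, and both were harvested 24 hours later. The other 6 arrays came from K562 cells expressing AE9a, a truncated splice form of the leukemia fusion AML1-ETO, grown alike and given the same siPRMT1 or control siRNA, and enter the normalization, the choice of probes, the estimate of the spread and the tests of where the 2 lines differed. Total RNA was copied into biotin-labelled cRNA and read on Illumina BeadChips, whose 47231 probes stand for 20046 gene symbols. Of these symbols, 13929 had a probe bright enough to be tested. How the AE9a cells were made, the number of different siRNAs against PRMT1, and whether replicates were separate cultures, are not given in the sources used here, so p-values cover only the spread between these arrays, which may be technical.

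PRMT1 encodes the main asymmetric arginine methyltransferase of human cells. It methylates histone H4 on an arginine of its tail, a mark associated with active promoters, and it methylates many RNA-binding proteins within arginine-glycine-rich stretches. In hematopoietic cells it is known as a partner of RUNX1 and of the fusion protein AML1-ETO, the topic of the series. A log2 fold change below is siPRMT1 minus control, so that 1 is a doubling. It comes from a limma fit to all 12 arrays and is given with its standard error, and p-values were adjusted over all 28338 tested probes by the method of Benjamini and Hochberg.

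The 6 wild type arrays were alike in brightness, with medians of raw intensity between 63.9 and 74.3. The 3 controls did not form a tight group. On the leading component of a principal component analysis of these 6 arrays, with 50.7% of their variance, siPRMT1 1, 2 and 3 scored 8.96, 0.241 and -32.0, and controls 1, 2 and 3 scored 37.5, 11 and -25.7. Both number 3 arrays thus lay together at one end and control 1 at the other. On the second component, with 22.1%, siPRMT1 scored 24.9, 2.55 and -2.10 and control 1.53, -28.3 and 1.42, with the siPRMT1 array above the control array for numbers 1 and 2 and below it for number 3. Same-numbered arrays deviated together from their group means, with correlations of 0.578, 0.283 and 0.536, and the number was therefore also used as a block. All 12 K562 marker genes on the array, among them the globins HBG1 and HBZ, GATA1 and the transferrin receptor TFRC, lay above background, the 95th percentile of 437 olfactory receptor probes, on all 6 arrays. Their summed raw intensity ran from 120725 to 131925 on siPRMT1 arrays and from 122141 to 140830.4 on control arrays.

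**Figure D1:**
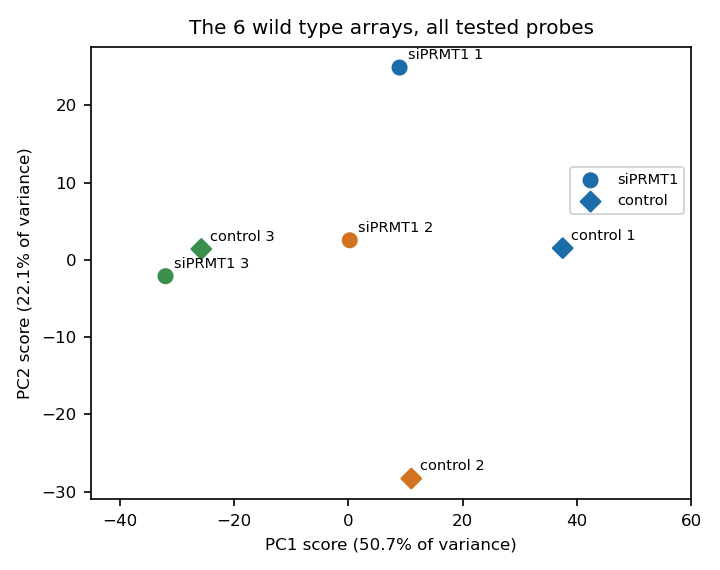
The 6 wild type arrays by their scores on the first 2 principal components of all 28338 tested probes (axes: component score, with the share of variance). Circles are siPRMT1 and diamonds control, and each colour is a replicate number. Both number 3 arrays lie at the left, at -32.0 for siPRMT1 and -25.7 for control.

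PRMT1 itself, the targeted gene, was measured by 1 probe. Its raw intensity was 1269.7, 1003.6 and 902.3 on siPRMT1 arrays 1, 2 and 3, against 1166.2, 1338.7 and 1832.0 on control arrays 1, 2 and 3. The siPRMT1 array was higher than its same-numbered control for number 1, lower for number 2 and lower by the widest margin for number 3, and the groups overlapped. The group values were 1058.5 ± 189.8 on siPRMT1 arrays and 1445.6 ± 345.5 on control arrays (SD, n = 3 each). The log2 fold change was -0.46 ± 0.16 and did not pass in limma (adjusted p = 0.486, and 0.201 with the replicate number as a block in wild type arrays). An exact two-sided permutation test of the 3 arrays against 3 gave p = 0.2, where the smallest p that this design allows is 0.1. Within pairs 1, 2 and 3 the log2 difference was 0.0075, -0.37 and -1.03. It ran from -0.60 to -0.29 (log2) as each array was left out in turn, the last without control 3, which had the highest PRMT1 level of the 6. In AE9a cells the same siRNA gave -0.61, and the 2 effects were not shown to differ (difference 0.14 ± 0.23, limma adjusted p = 0.853). PRMT1 was thus lower in pairs 2 and 3 and not in pair 1, and the array labelled siPRMT1 1 is called so below by its label alone.

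No gene passed the test across the 3 replicates. limma called 0 of 28338 probes (0.0%), with a smallest adjusted p of 0.138, while 2471 probes (8.72%) had an unadjusted p under 0.05. With the replicate number as a block in the wild type arrays, 14 probes passed, 4 higher (0.0141%) and 10 lower (0.0353%). They named 11 genes, with 2 probes that have no symbol. By each gene's brightest probe, 1 of 13929 genes was higher (0.00718%) and 7 lower (0.0503%). The same block fitted in each line called 1 probe, that of H2AJ, and fitted to the wild type arrays alone it called 0 (smallest adjusted p = 0.317 in limma, with 2657 at an unadjusted p under 0.05), so these 14 calls rest on that choice of fit. The count without the block depended on control 3. Without that array and without a block 403 probes were called higher (1.42%) and 440 lower (1.55%), against 0 in either direction when any other of the 12 arrays was left out. That was 247 genes higher (1.77%) and 306 lower (2.2%). The 14 and the 843 probes shared 12. Of the 843, 506 (60.02%) had a pair 3 difference with the sign of the estimate without control 3. That estimate itself includes siPRMT1 3. The fit without control 3 stands out by these same counts and was not planned as a test. Its calls below are therefore descriptions and no support for a gene or a list.

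The size of the difference varied between pairs in the order opposite to that of PRMT1. Across the tested probes its standard deviation was 0.275 in pair 1, 0.251 in pair 2 and 0.193 in pair 3 (log2), and 135, 63 and 6 of 13929 genes differed by at least 1 on the log2 scale in pairs 1, 2 and 3. Pair 3, with the largest difference in PRMT1, had the fewest genes that differed by that much. This order of 3 pairs is a description only, and its relation to PRMT1 was not tested. The differences of pairs 1 and 2, which share no array, were correlated across probes with a Pearson r of 0.44. The r was 0.044 between pairs 1 and 3 and -0.053 between pairs 2 and 3, over 28338 probes that are not independent. In all 3 pairs 16.8% of genes were higher and 16.2% were lower, counts of 2341 and 2259, which scaling each array to a common median in place of quantile normalization turned into 3286 and 1428. On normalized values, by which overlap is judged throughout, all 3 siPRMT1 arrays lay above all 3 control arrays for 4.74% of genes and below them for 5.18%. These shares over all genes are the background for every count below. A model estimate of at least 1 in size on the log2 scale was had by 4 of the 13929 genes, the secreted neuropeptide precursor gene VGF, FOS and TAF15 on the positive side and H2AJ on the negative side, and 89 genes had one of at least 1.5-fold.

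**Figure D2:**
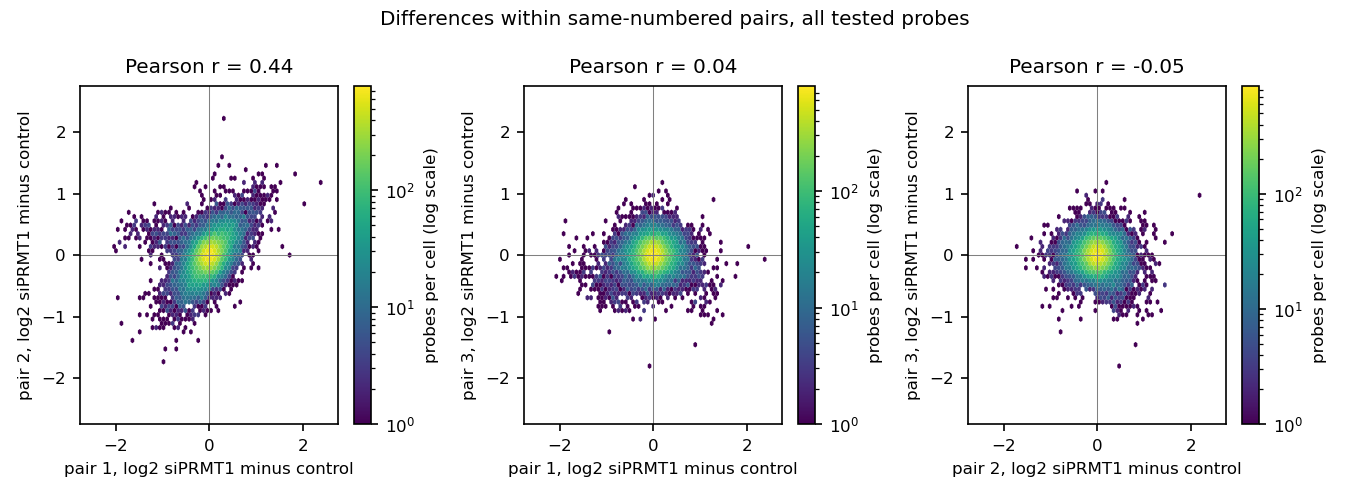
Log2 differences (siPRMT1 minus control) within same-numbered pairs for all 28338 tested probes, one pair against another. Colour gives the number of probes per hexagon on a log scale. The cloud leans along the diagonal for pairs 1 and 2 (r = 0.44) and shows no lean for pair 3 against either of them (0.044 and -0.053).

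Genes of histone H2A led the lower side. H2AJ is a replacement histone of the H2A family, encoded next to H4C16 on chromosome 12 and outside the main histone clusters. It had a raw intensity of 682.2, 845.4 and 897.8 on siPRMT1 arrays 1, 2 and 3, against 1402.7, 1768.6 and 1571.8 on control arrays 1, 2 and 3. The groups did not overlap, and siPRMT1 was lower by a similar margin in every pair, at -1.18, -1.02 and -0.81 (log2). Its log2 fold change of -1.0 ± 0.15 was the most negative among genes without overlap (limma adjusted p = 0.138, and 0.00812 with the block, which called it lower). H2AC20, H2AC18 and H2AC19 are replication-dependent H2A genes of the histone cluster on the long arm of chromosome 1, whose mRNA is made for packaging new DNA in S phase. The 250 bases before the start of each gene are shown since these 4 genes had like values. They come from RefSeq (GRCh38.p14), are written 5′ to 3′ on the gene's strand, and cover chr12:14774155-14774404 (plus strand) for H2AJ, chr1:149886668-149886917 (plus) for H2AC20 and chr1:149842751-149843000 (minus) for H2AC18. Capitals mark CCAAT boxes, the TATA box letters TATAAA and the octamer ATTTGCAT, each on either strand.
H2AJ: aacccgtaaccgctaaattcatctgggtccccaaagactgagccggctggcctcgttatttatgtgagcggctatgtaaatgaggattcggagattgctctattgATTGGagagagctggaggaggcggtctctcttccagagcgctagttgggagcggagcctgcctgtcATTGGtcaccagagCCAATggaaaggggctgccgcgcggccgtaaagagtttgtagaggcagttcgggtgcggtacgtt
H2AC20: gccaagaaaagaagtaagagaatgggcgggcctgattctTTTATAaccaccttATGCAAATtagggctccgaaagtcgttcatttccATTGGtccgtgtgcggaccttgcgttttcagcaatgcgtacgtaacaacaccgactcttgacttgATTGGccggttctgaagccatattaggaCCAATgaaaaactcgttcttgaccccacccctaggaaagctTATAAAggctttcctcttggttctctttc
H2AC18: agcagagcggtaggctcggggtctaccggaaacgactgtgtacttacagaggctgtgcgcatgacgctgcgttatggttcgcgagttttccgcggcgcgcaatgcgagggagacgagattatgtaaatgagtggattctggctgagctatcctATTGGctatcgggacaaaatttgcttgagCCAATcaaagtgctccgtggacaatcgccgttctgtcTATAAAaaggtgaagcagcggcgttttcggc
The window of H2AC19, chr1:149850811-149851060 (plus strand), is identical to that of H2AC18 over 249 of 249 overlapping bases after a shift of 1 base and is not printed again. CCAAT was present in all 4 windows, TATAAA in those of H2AC20, H2AC18 and H2AC19 and not in that of H2AJ, and ATTTGCAT in that of H2AC20. Of 35116 RefSeq promoter windows of this length, 32.0% hold CCAAT, 10.7% TATAAA and 1.63% ATTTGCAT. Of the 61 tested histone genes, 58 had a window, and 48, 37 and 23 of them held the 3 motifs, including genes that did not differ. These matches describe the sequence and not a site of binding.

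The 3 cluster genes gave values like those of H2AJ. H2AC20 read 635.6, 745.4 and 757.2 on siPRMT1 arrays 1, 2 and 3, against 1120.7, 1368.3 and 1183.8 on control arrays 1, 2 and 3. The 3 siPRMT1 arrays lay below all controls, and the log2 fold change was -0.82 ± 0.13 (limma adjusted p = 0.138, and 0.00812 with the block). H2AC18, by its brighter probe, read 2365.0, 2565.1 and 2604.4 on siPRMT1 arrays 1, 2 and 3, against 3365.0, 4474.7 and 3942.2 on control arrays 1, 2 and 3. Again no siPRMT1 array reached a control array, at -0.70 ± 0.12 for this probe and -0.90 for a dimmer one (limma adjusted p with the block 0.0124 and 0.0419). H2AC19 read 2002.9, 2262.7 and 2065.5 on siPRMT1 arrays 1, 2 and 3, against 2930.8, 5052.4 and 3439.8 on control arrays 1, 2 and 3. Its log2 fold change was -0.88 ± 0.18 (limma adjusted p = 0.0124 with the block), and control 2 stood highest of the 6 arrays. H2AC18 and H2AC19 are near-identical copies, so their probes may read both genes. As each array was left out in turn, the estimate ran from -1.09 to -0.84 for H2AJ, from -0.90 to -0.69 for H2AC20, from -0.81 to -0.58 for H2AC18 and from -1.05 to -0.64 for H2AC19 (log2). H2AJ, H2AC20, H2AC18 and H2AC19 were also called lower without control 3 (limma adjusted p = 0.00973, 0.00979, 0.0196 and 0.0255).

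**Figure D3:**
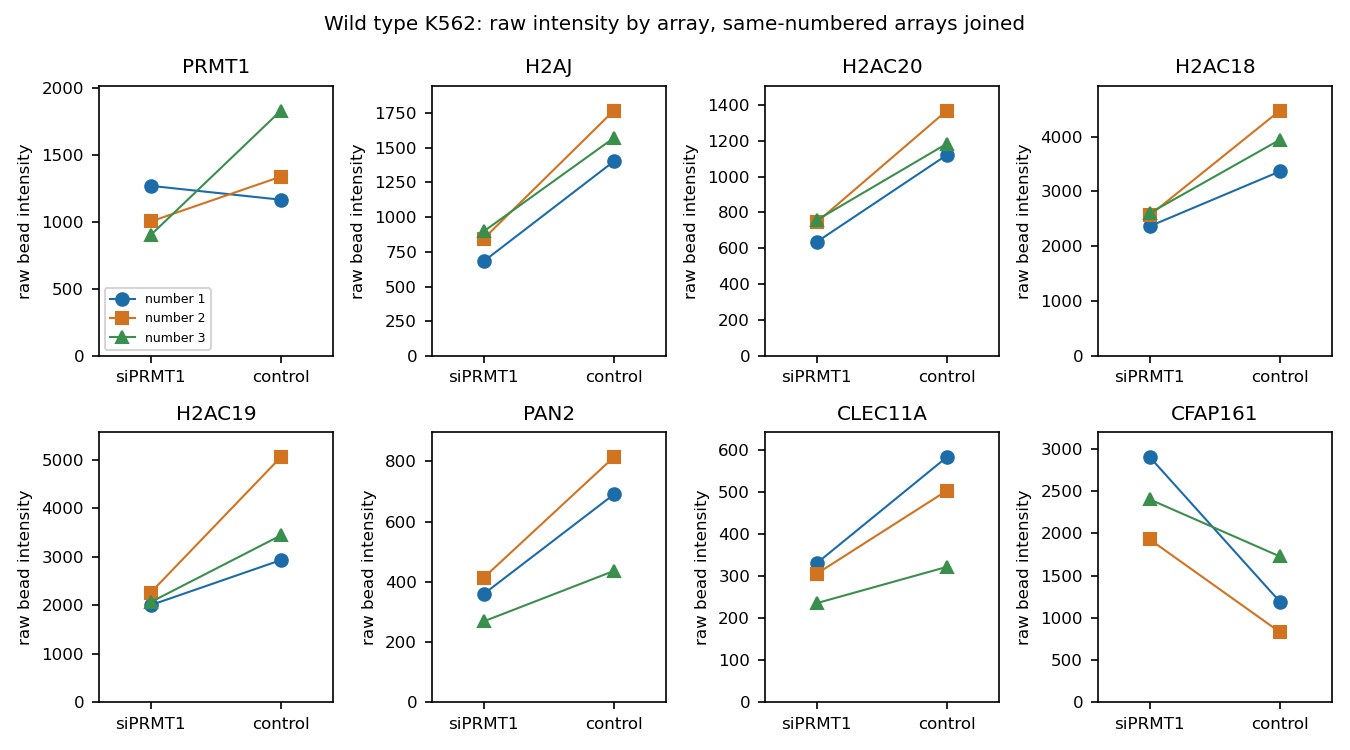
Raw bead intensity of 8 genes on the 6 wild type arrays, with siPRMT1 left of control in each panel and same-numbered arrays joined by a line. The H2A genes, PAN2 and CLEC11A lie lower on each siPRMT1 array than on the same-numbered control and CFAP161 higher, whereas the lines of PRMT1 cross (pair differences 0.0075, -0.37 and -1.03).

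The siPRMT1 effect on these histone genes differed from that in AE9a cells, where the same genes had positive values. The genes were chosen by their wild type values, which can widen such a difference. H2AJ was at 0.60 in AE9a cells, a difference of -1.61 ± 0.21 between the wild type and the AE9a effect (limma adjusted p = 0.0021). The difference was -1.32 for H2AC20 (limma adjusted p = 0.00295), -1.14 for H2AC18 (0.0071) and -1.37 for H2AC19 (0.0208). The linker histone gene H1-2, at -0.46 ± 0.10 in wild type and 0.22 in AE9a cells, differed too (-0.69, limma adjusted p = 0.0327). H1-2 read 12817.6, 12197.8 and 11996.5 on siPRMT1 arrays 1, 2 and 3, against 16082.5, 19885.8 and 16269.0 on control arrays 1, 2 and 3, again without overlap, although it passed in limma neither without (adjusted p = 0.427) nor with the block (0.0651).

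Of 50 tested replication-dependent histone genes, H2AC20, H2AC18 and H2AC19 included, 16 were lower and 2 higher in all 3 pairs, and in 8 the siPRMT1 arrays lay below all controls, against none above. Their median log2 fold change was -0.11, with 34 of 50 below 0, beside a median of 0.0018 over all 13929 genes. It was -0.0026 without control 3, so the median of the list rested on that array. Split by type, a grouping made after the values were seen, the 14 H2A genes among them, again with those 3, had a median of -0.28 (-0.35, -0.42 and -0.31 in pairs 1, 2 and 3), with 7 lower and 0 higher in all pairs and 6 lower without overlap. The 14 H2B genes had a median of -0.094 (5 lower and 1 higher in all pairs), the 9 H3 genes -0.045 and the 10 H4 genes -0.025, and no test between types was run. H2AC25, an H2A gene apart from the main clusters, was at -0.77 ± 0.19 and H2AC21 at -0.45 ± 0.14, both without overlap. In AE9a cells H2AC25 was lower too, at -1.40, and H2AC21 was at 0.55. H2BC21, next to H2AC20 on chromosome 1, was at -0.83 ± 0.24, with 736.7, 1094.3 and 860.6 on the siPRMT1 arrays, against 1484.1, 2233.7 and 1042.2 on the control arrays, where control 3 lay below siPRMT1 2. Several genes ran the other way in pairs 1 and 2 and not in pair 3. H2BC11 was at 1.03, 0.73 and -0.24 and H4C3 at 1.23, 0.89 and -1.09 in pairs 1, 2 and 3. H2AC20, H2AC18 and H2AC19 were the 3 members called lower with the block. Without control 3 limma called 6 members lower and 4 higher (H2BC11, H3C13, H3C15 and H4C2, adjusted p = 0.00793, 0.0117, 0.0213 and 0.0149), although further H3C13 probes gave -0.0096 and -0.0054. H3C15 was below background on controls 1 and 2 (53.1 and 59.5), and H4C2 read near it there (80.5 and 73.2). As background, the labelling kit copies RNA from an oligo(dT) primer and most replication-dependent histone mRNA ends without a poly(A) tail, so these signals need not follow the whole mRNA of the gene.

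**Figure D4:**
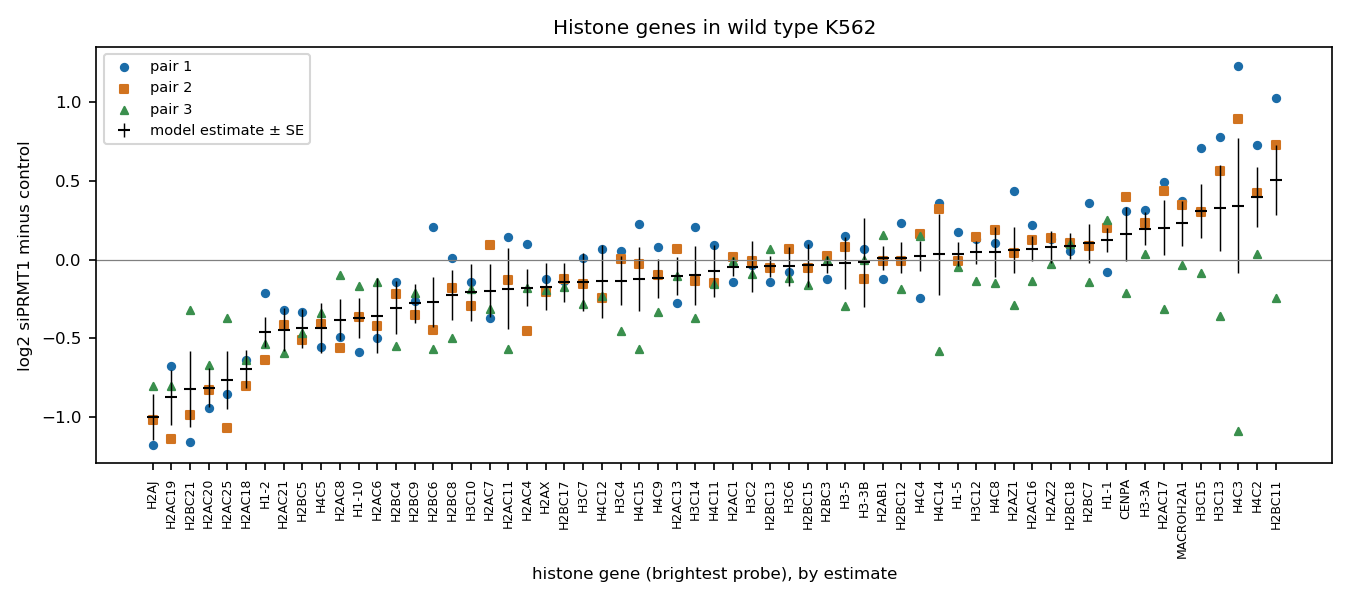
Log2 differences (siPRMT1 minus control) of the 61 tested histone genes, 1 brightest probe each, ordered by the model estimate. Points are the 3 same-numbered pairs, and black bars are the estimate with its standard error. H2AJ, at the left, is below -0.8 in each pair, whereas H4C3 spans 1.23, 0.89 and -1.09.

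Histone genes outside the replication-dependent set showed no common direction. Of 11 replacement histones and variants 3 were lower and 1 higher in all pairs, with a median of 0.0085. Besides H2AJ these were H1-10, a linker histone (-0.37 ± 0.13, no overlap), and H2AX, the variant phosphorylated at DNA breaks (-0.17 ± 0.15). The bright variant H3-3A, at 0.20 ± 0.11, did not pass. The 19 tested factors of histone mRNA transcription and processing had a median of 0.042, and 0 of them were called without control 3.

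The other calls with the block belonged to genes of several functions. PAN2, the catalytic subunit of a poly(A) deadenylase, read 359.7, 413.7 and 268.9 on siPRMT1 arrays 1, 2 and 3, against 690.3, 814.0 and 436.2 on control arrays 1, 2 and 3, without overlap (-0.88 ± 0.20, limma adjusted p = 0.00827 with the block). CLEC11A, a secreted growth factor of hematopoietic progenitors, read 330.7, 305.7 and 235.8 on siPRMT1 arrays 1, 2 and 3, against 582.9, 503.1 and 322.0 on control arrays 1, 2 and 3 (-0.66 ± 0.17, adjusted p = 0.0419 with the block in limma), with control 3 below siPRMT1 1 in raw intensity though not after normalization. RABGAP1L, a GTPase-activating protein of the Rab family, was at -0.62 ± 0.12 without overlap (0.0419 with the block). These 3 genes were lower in each of the 3 pairs, with pair 3 showing the smallest difference for each. ACSM3, a mitochondrial acyl-CoA synthetase, was at -0.87 ± 0.29 (0.0377 with the block), but its groups overlapped: it read 3062.5, 3406.5 and 2227.1 on the siPRMT1 arrays, against 6388.2, 7605.4 and 2700.7 on the control arrays, and control 3 lay near the siPRMT1 arrays. Further ACSM3 probes, the brightest included, were not called and gave -0.78 and -0.52.

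On the higher side CFAP161, a cilia-associated protein gene, read 2905.1, 1929.4 and 2403.4 on siPRMT1 arrays 1, 2 and 3, against 1191.5, 831.9 and 1727.8 on control arrays 1, 2 and 3. No control array reached the lowest siPRMT1 array, and the log2 fold change was 0.94 ± 0.20 (limma adjusted p = 0.0279 with the block). UBE2E1, a ubiquitin-conjugating enzyme, was called by a dimmer probe, which read 480.2, 317.1 and 403.0 on the siPRMT1 arrays, against 173.2, 215.1 and 201.8 on the control arrays (0.94 ± 0.14, 0.0279 with the block), whereas its brighter probe gave 0.16. RPL6, a ribosomal protein, was likewise called by 1 probe (0.78 ± 0.22, 0.0419 with the block), and its brighter probes gave 0.05 and 0.24. UBE2E1 and RPL6 thus have a size that depends on the probe, and neither is called by its brightest one. The 2 called probes without a symbol were at 0.86 and -0.57. The one at -0.57 read 53.23 and 58.23 on average on AE9a siPRMT1 and control arrays, so its p draws partly on dim arrays.

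Below these calls stood the genes with the smallest p whose groups did not overlap and whose 3 pairs had 1 sign, given as values where they did not pass. On the higher side PPHLN1, periphilin, an RNA-binding subunit of the HUSH silencing complex, read 1798.3, 1787.6 and 1764.8 on siPRMT1 arrays 1, 2 and 3, against 1225.2, 1175.2 and 1110.0 on control arrays 1, 2 and 3. It was higher by a similar amount in each pair (0.40, 0.61 and 0.59), and the estimate was 0.53 ± 0.10 (limma adjusted p = 0.405, and 0.0619 with the block). Its dimmer probes gave 0.16, 0.16 and 0.47. COBL, an actin nucleator, was at 0.61 ± 0.13, and GCDH, glutaryl-CoA dehydrogenase of lysine breakdown, at 0.58 ± 0.13. The zinc finger gene ZNF518B (0.72 ± 0.17), the RNA helicase gene DHX9 (0.65 ± 0.17) and the GTPase gene RHOQ (0.60 ± 0.20) had the next largest values with CFAP161 and COBL. A second RHOQ probe was at -0.13, so RHOQ has no single direction. The dim genes SLC8A2, a sodium-calcium exchanger (0.39 ± 0.08), AQP3, a water and glycerol channel (0.52 ± 0.12), FOXD4L1 (0.40 ± 0.09), TSPOAP1 (0.36 ± 0.07) and SNORA14B, a small nucleolar RNA (0.35 ± 0.07), read at most 131.9 on any of the 6 arrays. SLC8A2 and AQP3 were above background on 1 of 3 control arrays each. ST8SIA1 was above it on 2 siPRMT1 arrays and on none of the controls, so no size is given for it.

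On the lower side ANAPC16, a subunit of the anaphase-promoting complex, read 170.8, 198.2 and 186.7 on siPRMT1 arrays 1, 2 and 3, against 275.4, 286.9 and 274.0 on control arrays 1, 2 and 3. Both groups were tight and apart, at -0.55 ± 0.11 (limma adjusted p = 0.414, and 0.0619 with the block). DHPS, deoxyhypusine synthase, which modifies the translation factor eIF5A, was at -0.49 ± 0.11, with its other probes at -0.29 and -0.36. TRAPPC9, a subunit of a vesicle tethering complex, was at -0.48 ± 0.11, whereas a further probe gave -0.09. UBA7, the activating enzyme for the ubiquitin-like protein ISG15, was above background on no siPRMT1 array and on 1 control array, so it has no size either. Of the 10 higher and 10 lower genes with the smallest p, H2AJ, H2AC20, H2AC18, H2AC19, RABGAP1L and CFAP161 passed with the block. Without control 3 ANAPC16, DHPS and TRAPPC9 were called lower (limma adjusted p = 0.0322, 0.0473 and 0.0129) and PPHLN1, COBL and GCDH higher (0.0272, 0.0155 and 0.0122).

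The other arginine methyltransferases and their partners showed values near or above 0. Of 16 tested members including PRMT1, 5 were higher and 1 lower in all 3 pairs, and 2 were higher without overlap. Their median was 0.11. PRMT5, the main symmetric arginine methyltransferase, read 1162.3, 959.5 and 1446.3 on the siPRMT1 arrays, against 843.7, 792.9 and 1030.7 on the control arrays, higher in each pair (0.32, 0.32 and 0.43), at 0.36 ± 0.14 (limma adjusted p = 0.517). WDR77, the partner that PRMT5 needs for activity, read 814.4, 584.6 and 773.7 on the siPRMT1 arrays, against 505.4, 511.3 and 520.1 on the control arrays, without overlap, at 0.43 ± 0.11 (adjusted p = 0.442, and 0.105 with the block in limma). PRMT6, like PRMT1 an asymmetric enzyme, read 1290.1, 1167.8 and 1375.0 on siPRMT1 arrays 1, 2 and 3, against 631.2, 747.0 and 1395.4 on control arrays 1, 2 and 3. Control 3 was as high as the siPRMT1 arrays and controls 1 and 2 were far below them, and the estimate was 0.52 ± 0.21. It was called higher without control 3 (0.85, limma adjusted p = 0.00519).

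PRMT2 (0.04 ± 0.13), PRMT3 (0.14 ± 0.15), PRMT7 (0.072 ± 0.13) and PRMT9 (-0.043 ± 0.14) did not pass, nor did CARM1, the PRMT4 enzyme and nuclear receptor coactivator (0.18 ± 0.13). The PRMT5 adaptors COPRS (0.20 ± 0.14), RIOK1 (0.23 ± 0.13) and CLNS1A (0.039 ± 0.12) and NDUFAF7, a mitochondrial arginine methyltransferase (0.19 ± 0.11), had values between 0.039 and 0.23. Other probes gave 0.20 and -0.25 for NDUFAF7 and -0.036 and -0.13 for PRMT2, so neither has a single direction. BTG1, which binds PRMT1 and raises its activity, was at -0.16 ± 0.14, and the arginine demethylase candidate JMJD6 at -0.054 ± 0.11. PADI4, which converts arginine to citrulline, was above background on 1 of the 6 arrays. The largest positive value of the list was that of PRMT6 and the largest negative one that of PRMT1.

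RNA-binding proteins with arginine-glycine motifs, a class that holds many known PRMT1 substrates, were more often higher than lower. Of 41 tested genes 17 were higher and 5 lower in all 3 pairs, with 5 and 1 without overlap, and the median was 0.20. The mean level of the list, relative to its mean over the 6 arrays, was 0.013, 0.072 and 0.17 on siPRMT1 arrays 1, 2 and 3, against -0.22, -0.069 and 0.03 on control arrays 1, 2 and 3. Control 1 was thus the lowest, and siPRMT1 3 the highest, with control 3 above siPRMT1 1. DHX9, an RNA helicase, read 1000.4, 919.3 and 1157.0 on siPRMT1 arrays 1, 2 and 3, against 526.4, 557.3 and 870.8 on control arrays 1, 2 and 3. Each siPRMT1 array lay above all controls, at 0.65 ± 0.17 by the brightest probe and 0.32, 0.19 and 0.28 by 3 others (limma adjusted p = 0.442). HNRNPA3 was at 0.68 ± 0.24, SYNCRIP, an hnRNP that binds A-rich mRNA, at 0.59 ± 0.21 and the FET family gene TAF15 at 1.0 ± 0.45 (1.01 by a further probe), with a TAF15 difference of 2.02, 0.83 and 0.15 in pairs 1, 2 and 3.

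ALYREF, an mRNA export adaptor, read 1321.5, 1078.3 and 961.8 on the siPRMT1 arrays, against 682.8, 792.4 and 731.1 on the control arrays, without overlap (0.56 ± 0.16), and DDX3X, a translation-linked helicase, was at 0.40 ± 0.12, but a further probe was at 0.0066 for ALYREF and -0.0006 for DDX3X. Of the other FET members, EWSR1 was at -0.34 ± 0.11, lower without overlap, and its other probes were at 0.072 and -0.08. CAPRIN1, a stress granule protein, was at -0.55 ± 0.21 with its other probes at 0.033 and 0.10, so it has no single direction. Without control 3, limma called DHX9, HNRNPA2B1, HNRNPA3, HNRNPAB and SYNCRIP higher (adjusted p = 0.00627, 0.00734, 0.0338, 0.0368 and 0.00979) and CAPRIN1 lower (0.0402). The other HNRNPA2B1 probes, at -0.048, -0.13 and -0.12, lay on the other side of 0 from the brightest one (0.31).

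Ribosome biogenesis genes, which act in the nucleolus to make and process ribosomal RNA, were also more often higher than lower. Of 44 tested, 23 were higher and 0 lower in all 3 pairs, and 40 had an estimate above 0. Their median was 0.15, at 0.22, 0.20 and 0.088 in pairs 1, 2 and 3. The mean level of the list was 0.13, -0.012 and 0.16 on siPRMT1 arrays 1, 2 and 3, against -0.11, -0.25 and 0.072 on control arrays 1, 2 and 3. Controls 1 and 2 were the lowest arrays, and control 3 lay among the siPRMT1 arrays. NOP56 and NOP58, the paired core proteins of box C/D small nucleolar ribonucleoproteins, had the largest values. NOP58 read 4037.3, 3566.5 and 3323.6 on siPRMT1 arrays 1, 2 and 3, against 2407.0, 2179.4 and 3165.0 on control arrays 1, 2 and 3, without overlap (0.47 ± 0.13, limma adjusted p = 0.442). NOP56 read 4648.4, 3906.8 and 3775.3 on siPRMT1 arrays 1, 2 and 3, against 2051.6, 1619.9 and 4064.5 on control arrays 1, 2 and 3, where control 3 was higher than siPRMT1 2 and 3 (0.73 ± 0.24, with other probes at 0.80 and 0.54). Without control 3 NOP56, NOP58, LYAR, MRTO4 and NIP7 were called higher by limma (adjusted p = 0.00488, 0.0141, 0.0408, 0.0319 and 0.0248), and 0 of the list lower. The cytosolic ribosomal proteins themselves had a median of -0.011 over 68 genes, which lay above 0 under median scaling, with 10 higher and 8 lower in all pairs.

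**Figure D5:**
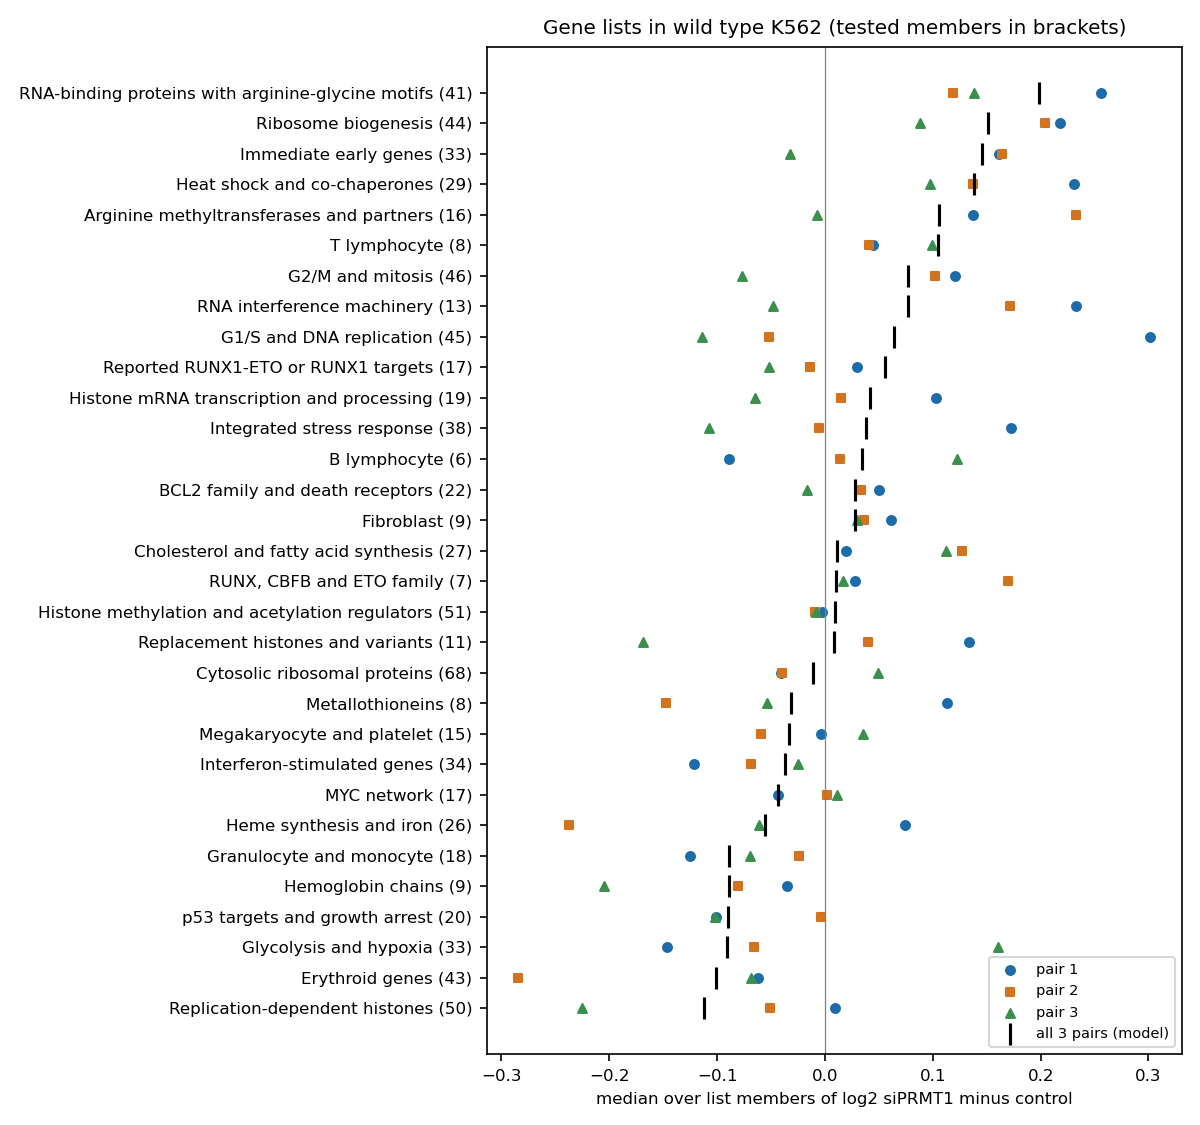
Median log2 difference (siPRMT1 minus control) of each of the 31 gene lists in wild type K562, with the number of tested members in brackets. Points are the medians in the 3 same-numbered pairs and black ticks those of the model over all pairs. RNA-binding proteins (0.20) and ribosome biogenesis (0.15) stand at the top and replication-dependent histones (-0.11) and erythroid genes (-0.10) at the bottom.

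Erythroid genes were more often lower than higher. Of 43 tested, 18 were lower and 4 higher in all 3 pairs, 10 and 2 without overlap, and 30 had an estimate below 0. Their median was -0.10, with -0.062, -0.28 and -0.068 in pairs 1, 2 and 3 and -0.11 without control 3. In RNA from whole cultures, fewer cells of a type and less RNA per cell cannot be told apart. GATA1, the master transcription factor of red cell precursors, read 726.8, 648.7 and 743.7 on the siPRMT1 arrays, against 859.0, 1073.0 and 783.8 on the control arrays, lower without overlap (-0.39 ± 0.13). Its partner LMO2 read 3639.4, 3021.3 and 2747.0 on the siPRMT1 arrays, against 4698.8, 4681.4 and 3400.2 on the control arrays (-0.47 ± 0.16), without overlap once normalized. It was at 0.54 in AE9a cells, and the difference of -1.02 did not pass (limma adjusted p = 0.0527).

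The erythroid chaperone of alpha globin AHSP (-0.36 ± 0.12), the blood group gene ICAM4 (-0.39 ± 0.12), the membrane skeleton gene DMTN (-0.40 ± 0.12) and BLVRB, biliverdin reductase (-0.34 ± 0.11), were lower in every pair. Further ICAM4 probes were at 0.12 and -0.12. ALAS2, which opens heme synthesis in red cells, was at -0.59 ± 0.29, with pairs at -0.71, -0.74 and -0.32 and dimmer probes at -0.035 and 0.032. KLF1, an activator of globin genes, was at -0.29 ± 0.18 and the mitochondrial iron importer SLC25A37 at -0.58 ± 0.23. MYB, which keeps precursors proliferating, had the largest positive value of the list at 0.31 ± 0.12, higher in all pairs. Of the list DMTN, ICAM4, LMO2 and SLC25A37 were called lower without control 3 (limma adjusted p = 0.0284, 0.0412, 0.0427 and 0.0059), and 0 higher.

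The 9 tested hemoglobin chains had a median of -0.089, which was 0.027 without control 3, and 4 were lower in all pairs. HBE1, the embryonic beta-type chain, read 3294.1, 2786.3 and 3390.3 on the siPRMT1 arrays, against 3367.7, 4402.9 and 3802.5 on the control arrays, without overlap once normalized (-0.32 ± 0.11). HBZ, its alpha-type counterpart, varied more by number than by siRNA, with 7400.4, 11900.7 and 14929.0 on the siPRMT1 arrays, against 8192.6, 16041.0 and 17498.7 on the control arrays (-0.31 ± 0.28). HBD was at 0.88, 0.78 and -0.85 in pairs 1, 2 and 3, and control 3 was its highest array. Without control 3 it was called higher (limma adjusted p = 0.0406). Heme synthesis and iron genes had a median of -0.056 over 26 genes, which lay above 0 under median scaling, with SLC40A1, the iron exporter, at -0.47 ± 0.20 (-0.17 by a further probe) and ALAS1, the form of the first enzyme in all tissues, at -0.24 ± 0.07 (-0.0062 by a further probe).

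Most markers of other blood lineages and of fibroblasts were not above background on all 6 arrays, although some were bright. Of the markers on the array, 2 of 6 for megakaryocytes, 1 of 14 for granulocytes and monocytes, 2 of 6 for T cells, 2 of 5 for B cells and 1 of 7 for fibroblasts lay above background on all 6 arrays. Of all probes, between 40.95% and 42.5% lay above background on any single wild type array. The fibroblast one, the collagen gene COL1A2, read 1152.4, 1338.8 and 1136.5 on the siPRMT1 arrays, against 710.7, 896.2 and 872.8 on the control arrays, higher without overlap (0.51 ± 0.13, limma adjusted p = 0.442), and the summed fibroblast markers ran from 1504 to 1729 on siPRMT1 arrays and from 1127 to 1285 on control arrays, with 3 of the 7 on no array above background. COL1A2 read 67.03 and 68.63 on average on AE9a siPRMT1 and control arrays, so its standard error draws partly on dim arrays. Its part in other results was not tested. CD3D, a T cell receptor subunit gene, followed the replicate number, with 609.6, 2821.2 and 2485.9 on siPRMT1 arrays and 889.8, 1888.4 and 1665.1 on control arrays. TUBB1, the platelet tubulin, was at -0.61 ± 0.20, lower without overlap. It had the lowest value of 15 tested megakaryocyte and platelet genes, whose median was -0.033 and whose highest value was 0.35. Of these genes 3 were higher and 3 lower in all pairs, with 1 and 2 without overlap. Without control 3, limma called 1 of them higher and 0 lower.

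Stress genes had medians near or above 0. The 29 heat shock and co-chaperone genes had a median of 0.14, with 9 higher and 1 lower in all pairs, and HSP90AA1, the inducible HSP90, was at 0.38 ± 0.14. HSP90AA1 and the regulator HSF1 were called higher without control 3 (limma adjusted p = 0.0368 and 0.0438). The 38 genes of the integrated stress response, which ATF4 drives when translation is checked, had a median of 0.038, with 4 higher and 7 lower in all pairs. DDIT4, an inhibitor of mTORC1, read 12577.2, 16557.7 and 18417.5 on the siPRMT1 arrays, against 11701.3, 10461.6 and 13380.8 on the control arrays (0.44 ± 0.15), and PHGDH, the first enzyme of serine synthesis, 8162.9, 8105.5 and 10665.1 on the siPRMT1 arrays, against 10343.3, 14045.1 and 10450.6 on the control arrays (-0.40 ± 0.14). The same list had a median of -0.85 in AE9a cells. The effects differed between the lines for DDIT4 (2.76, limma adjusted p = 4.32e-05), PHGDH (1.91, 3.43e-04) and ATF3 (1.5, 0.0359).

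Control 3 held high levels of several of these stress genes. SLC7A5, a large neutral amino acid transporter, read 6391.3, 4563.6 and 7376.8 on siPRMT1 arrays 1, 2 and 3, against 2919.1, 2870.1 and 7622.9 on control arrays 1, 2 and 3. ATF3, a stress-induced transcription factor, read 759.8, 623.6 and 870.9 on siPRMT1 arrays 1, 2 and 3, against 455.2, 452.0 and 911.1 on control arrays 1, 2 and 3. For both, control 3 lay with siPRMT1 3 at the top and controls 1 and 2 at the bottom. Without control 3, limma called ATF3, CHAC1, SLC38A2, SLC7A1 and SLC7A5 higher (adjusted p = 0.0193, 0.00979, 0.0284, 0.026 and 0.00873) and 0 members lower. In pair 3 the log2 differences of these 5 genes lay between -0.31 and -0.10.

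Immediate early genes had a median of 0.15 over 33 genes, with FOS, a subunit of AP-1, at 1.15 ± 0.57. The FOS difference was 2.40, 1.14 and -0.10 in pairs 1, 2 and 3, and it did not pass (limma adjusted p = 0.592). TRIB1, a pseudokinase that directs protein degradation, was higher in all pairs without overlap (0.40 ± 0.12). ID3, an inhibitor of basic helix-loop-helix factors, was lower in all pairs (-1.26, -0.85 and -0.46) while its level also differed widely by number, with 467.2, 260.0 and 148.4 on the siPRMT1 arrays, against 1024.2, 492.3 and 210.7 on the control arrays. In the MYC network MXD4 and MXD1, antagonists of MYC, were at -0.45 ± 0.25 and -0.38 ± 0.13 and the MYC target NME1 at 0.42 ± 0.16. Without control 3 these were called, MXD4 and MXD1 lower (limma adjusted p = 0.00877 and 0.0446) and NME1 higher (0.0129).

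Cell cycle lists had medians close to 0. The 45 genes of G1/S and DNA replication had a median of 0.064, with pair medians of 0.30, -0.052 and -0.11, and 0 were called without control 3. The 46 genes of G2/M and mitosis had a median of 0.077. Among them BIRC5, survivin, read 1683.4, 1332.1 and 1615.9 on the siPRMT1 arrays, against 945.8, 829.7 and 1307.6 on the control arrays, higher without overlap (0.54 ± 0.15), with a further probe at 0.31, and ASPM, a spindle protein, was at 0.48 ± 0.18. Both were called higher without control 3 (limma adjusted p = 0.0129 and 0.0213). The p53 target and growth arrest genes had a median of -0.09 over 20 genes, with DDB2, a DNA repair factor, at -0.36 ± 0.12 and CCNG1, cyclin G1, at -0.45 ± 0.18. DDB2 was dim, above background on 1 of 3 siPRMT1 arrays, which limits its size.

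Metabolic lists had medians near 0. Glycolysis and hypoxia genes had a median of -0.091 over 33 genes, but 0.16 in pair 3. Their mean level was -0.36, 0.14 and 0.032 on siPRMT1 arrays 1, 2 and 3, against -0.062, 0.31 and -0.063 on control arrays 1, 2 and 3. siPRMT1 1 was the lowest and control 2 the highest array. P4HA1, a collagen prolyl hydroxylase induced by low oxygen, read 612.6, 1315.8 and 1109.5 on the siPRMT1 arrays, against 1579.3, 2580.2 and 976.8 on the control arrays (-0.77 ± 0.33), and ERO1A, an oxidase of the endoplasmic reticulum, was lower without overlap (-0.45 ± 0.15). VEGFA, at -0.29 ± 0.13, had an effect that differed from the one in AE9a cells (1.05, limma adjusted p = 0.0149). The 27 cholesterol and fatty acid synthesis genes had a median of 0.011, with ACLY, which supplies acetyl-CoA, at 0.38 ± 0.11, higher without overlap. The 8 metallothioneins and regulators had a median of -0.032. The MT2A effect (-0.39 ± 0.34) differed from the one in AE9a cells (2.40, limma adjusted p = 0.0348), and its level was lowest on both number 1 arrays, with 95.6, 192.1 and 194.4 on the siPRMT1 arrays, against 107.4, 372.4 and 228.7 on the control arrays.

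Genes of the RUNX, CBFB and ETO family had a median of 0.01 over 7 genes. RUNX1, the hematopoietic factor that AML1-ETO carries a part of, read 208.1, 168.5 and 150.7 on the siPRMT1 arrays, against 144.6, 127.7 and 144.6 on the control arrays, higher without overlap (0.31 ± 0.13, limma adjusted p = 0.546). The 17 reported RUNX1 or RUNX1-ETO targets had a median of 0.055. UBASH3B, a phosphatase that damps receptor signalling, was at 0.66 ± 0.19 and was called higher without control 3 (limma adjusted p = 0.0018), with a further probe at 0.11. PTGS1, a prostaglandin synthase, was at -0.78 ± 0.31, and a second probe at -0.018. Interferon-stimulated genes (-0.037 over 34 genes), RNA interference genes (0.077 over 13), genes of the BCL2 family and death receptors (0.028 over 22) and histone methylation and acetylation regulators (0.0092 over 51) had medians near 0. IFIH1, a sensor of double-stranded RNA, was at -0.57 ± 0.22, with 179.1, 99.1 and 92.1 on the siPRMT1 arrays, against 268.2, 194.0 and 113.9 on the control arrays, lower with siPRMT1 in each pair and lowest for number 3 within each siRNA.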

How the data were processed

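The deposited table of non-normalized bead intensity was the starting point. The submitters' processing notes name GenomeStudio, and how the background was handled is not stated there. Its 47231 probes were paired with genes through the platform annotation (30113 with 1 symbol, 8 with several, 17110 unnamed here, 0 symbols updated). The authors' processed value table, whose scale is linear, whose normalization is unknown and whose column medians lie between 65.5 and 65.8, served only as an alternative. It ranked the probes of each array as the raw table did (Spearman 0.999 or more).

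Intensities were corrected with normexp (offset 50), quantile-normalized over 12 arrays and then taken to log2. The log2 values were fitted with limma 3.58.1 in R 4.3.3 (lmFit, eBayes with an intensity trend, 4 group means, threshold 0.05). Probes with a mean under the 40th percentile were left out, which kept 28338. Each gene is given by its brightest probe. The deposited raw intensities are printed per array, and their number limits the precision. Python 3.11.15 was used for pair differences and exact permutation tests, and the limma step was tested on simulated data.

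Replicate numbers come from the sample titles. Residuals of same-numbered wild type arrays correlated at 0.578, 0.283 and 0.536, against -0.583 to 0.124 across numbers, so the numbers were taken to pair the arrays, and the block was an alternative. Other alternatives changed the normalization, filter, arrays and variance model.

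The comparison, the gene lists and the genes were chosen with earlier results of these data known. Genes were named if they belonged to the arginine methyltransferase list, were called with the block, were among the 10 smallest p or 5 largest estimates per direction without overlap, had one of the 3 smallest p of a list, or were list members called in a fit that is printed. VGF, FOS, TAF15, EWSR1, GATA1, AHSP, ALAS2, KLF1, MYB, CD3D and the genes of the closing observations were named after their values were seen.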

Additional observations from a re-analysis of the deposited data

Results flagged for a closer look

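For 10 of the genes named by rule the siPRMT1 effect in wild type cells differed from that in AE9a cells. Each was above background on at least 1 array of every group. The limma test was of the difference itself, over 3 arrays per group, with adjusted p over all tested probes. The histone gene H2AC21, named above outside the rule, passed it too (-0.99, limma adjusted p = 0.0323). The genes named by rule had 156 probes. The share of all tested probes that passed the same test is not given here, so the count of 10 has no background beside it. The differences are wild type minus AE9a effect on the log2 scale.

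Of these, 5 histone genes were lower in wild type relative to AE9a cells. The difference was -1.61 for H2AJ, -1.32 for H2AC20, -1.37 for H2AC19, -1.14 for H2AC18 and -0.69 for H1-2, with limma adjusted p between 0.0021 and 0.0327. All 5 had a positive estimate in AE9a cells. They were among the genes named for a small p without overlap in wild type cells, so that lack of overlap was fixed by the choice. A choice by wild type values can also widen the difference between the lines. Other histone genes with lower values in wild type cells were lower in AE9a cells too, H2AC25 at -1.40 and H2BC21 at -0.75. Their differences of 0.64 and -0.076 did not pass (limma adjusted p = 0.314 and 0.956).

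Stress genes were higher in wild type relative to AE9a cells. The difference was 2.76 for DDIT4, 1.91 for PHGDH and 1.5 for ATF3. DDIT4 was at 0.44 in wild type and -2.32 in AE9a cells (limma adjusted p = 1.17e-06 in AE9a), and PHGDH at -0.40 in wild type and -2.31 in AE9a cells. VEGFA differed by 1.05 and the metallothionein gene MT2A by 2.4. In both VEGFA (-0.29 in wild type, -1.33 in AE9a) and MT2A (-0.39 in wild type, -2.79 in AE9a) the estimates had 1 sign and were larger in size in AE9a cells.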

How the results depend on the processing

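The number of probes called across the wild type comparison was 0 by limma in most settings, and it depended on the replicate block and on control 3. It was 14 with the replicate block in wild type arrays, 1 with the block in each line and 0 in wild type arrays alone, with or without the block (unadjusted p under 0.05 for 2657 and 1250 probes). Leaving out 1 array in turn gave 0 to 843 probes, with 843 only without control 3. It was 421 without both number 3 arrays and 1123 with the block and without them, the last chosen after seeing the data together with the same fits without number 1 or 2, which called 0. Other settings called 0. Genes lower in all 3 pairs numbered 1428 under median scaling, which also raised those higher to 3286, and the median probe estimate was 0.028 there, against 0.0025. The PRMT1 estimate stayed below 0 in every setting run and was called in none.

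With all 6 wild type arrays, the replicate block changed the call of no named gene other than the block calls given above. Without both number 3 arrays HBD was called with the block (limma adjusted p = 0.00922) and not without it (0.0676). Some estimates turned sign, and the cause was not tested. PRMT9 was at 0.026 under median scaling, 0.033 with array weights, 0.13 without both number 3 arrays, with or without the block, and -0.14 to 0.062 as 1 array was left out. CLNS1A was at -0.028 with array weights, -0.10 without both number 3 arrays, with or without the block, and -0.089 to 0.14 with 1 array left out. Without both number 1 arrays, with or without the block, HBD was at -0.035 and H4C3 at -0.10. With 1 array left out BTG1 ran from -0.29 to 0.031, HBD from -0.10 to 0.79, HBZ from -0.70 to 0.0017, PRMT2 from -0.021 to 0.13, PRMT3 from -0.013 to 0.29 and PRMT7 from -0.0048 to 0.19 (log2). The signal of dim probes near background limits TSPOAP1, PADI4, ST8SIA1, UBA7, AQP3, SLC8A2, H3C15, H4C2 and DDB2.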

Other observations

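Some of the largest values in the fit without control 3 belonged to genes outside the lists. The 6 described here were taken from those called in that fit, after their values were seen. VGF, the precursor of secreted neuropeptides, read 674.6, 1644.0 and 2056.1 on siPRMT1 arrays 1, 2 and 3, against 496.3, 362.0 and 1006.5 on control arrays 1, 2 and 3. It was higher with siPRMT1 in each pair, at 0.32, 2.21 and 0.95 (log2), and the groups overlapped. NQO1, a quinone reductase, read 1006.5, 1205.6 and 1735.3 on siPRMT1 arrays, against 491.2, 642.1 and 1673.2 on control arrays, so control 3 reached the level of siPRMT1 3. RNASE1, a secreted ribonuclease, read 246.4, 146.7 and 100.3 on siPRMT1 arrays, against 453.0, 460.5 and 116.4 on control arrays, lower in each pair. TEX19, a germ cell gene, read 202.9, 171.7 and 183.6 on siPRMT1 arrays, against 602.5, 489.5 and 147.4 on control arrays, with control 3 below all siPRMT1 arrays. The small nucleolar RNA genes SNORD96A and SNORD14C were higher in pairs 1 and 2 (1.04 and 0.83 for SNORD96A, 1.34 and 0.75 for SNORD14C) and slightly lower in pair 3 (-0.060 for SNORD96A, -0.083 for SNORD14C). That all 6 genes were called without control 3 was fixed by the choice, and none of them was called with the block (limma adjusted p = 0.0367, 0.0155, 0.00627, 9.81e-04, 0.00528 and 0.0103 without control 3, in the order VGF, NQO1, RNASE1, TEX19, SNORD96A and SNORD14C).

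A set of probes had one profile over the wild type arrays. Of 263 tested probes that spanned at least 2 on the log2 scale over the 6 arrays, 131 correlated at 0.95 or more with the probe of HAUS2, a subunit of a spindle complex, over 6 arrays, 47 of them without a symbol. HAUS2 read 1180.4, 894.7 and 331.0 on siPRMT1 arrays 1, 2 and 3, against 3722.6, 694.0 and 416.2 on control arrays 1, 2 and 3. TNFSF14, a cytokine gene, read 1768.7, 1297.3 and 481.8 on siPRMT1 arrays, against 5082.5, 961.4 and 599.5 on control arrays, and the probes of SMIM14, RNF213 and SLC4A5 followed the same course. These probes were chosen by that profile, so being highest on control 1 was fixed by the choice.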
